A study of Mus musculus with 8 samples.

Results

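The genes described here are 43 genes of glycolysis, gluconeogenesis and glycogen metabolism, together with regulators of these pathways, among the 55487 genes counted in the series. They were listed by symbol and not by a measured threshold, but with earlier results of these data known, and 42 of them had enough reads to be tested. By role, 7 make or release glucose, 6 take up or phosphorylate it, 7 act in the upper and 8 in the lower part of glycolysis, 4 make or degrade fructose 2,6-bisphosphate, 4 are enzymes of glycogen, 3 are glycogen-targeting subunits of protein phosphatase 1, 3 are transcriptional regulators and 1 admits fructose.

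Glycolysis breaks glucose down to pyruvate and lactate, and gluconeogenesis runs the reversible steps backwards with separate enzymes at the irreversible ones. The liver does both and stores glucose as glycogen, and it uses its own forms of several enzymes, such as liver pyruvate kinase and liver glycogen synthase. In the liver, feeding and fasting and the circadian clock both affect the levels of many of these transcripts.

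The RNA was sequenced from the stromal vascular fraction of subcutaneous MC38 tumours, a mouse colon cancer line labelled with GFP, after the GFP-positive tumour cells had been removed by cell sorting. The hosts are labelled as 4 Bmal1+/+ mice and 4 Bmal1-/- mice, after their genotype at Bmal1, a transcription factor of the core clock. The tumour cells implanted in both were not deleted for Bmal1, and no treatment is named in the labels. Age, sex and time of collection are not given in the labels, each library stands for 1 sample, and p-values measure the spread between these samples.

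The library totals lay between 14783346 and 18449143 counts in the Bmal1+/+ group and between 14054825 and 15624815 in the other group, so that a floor of 3 counts was 0.163 to 0.213 CPM (counts scaled to library size; counting error only). The transcript of the deleted gene (Arntl) was higher in the group labelled as deleted, at 30.1 to 35.0 CPM against 0.960 to 2.71 CPM, and the group is therefore called the libraries labelled Bmal1-/- throughout. This direction is the reverse of what the labels would imply if the count tracked an intact transcript. The count covers the whole gene and collection time is not given, so the genotype of the libraries was not settled. "Bmal1+/+ libraries" likewise means those labelled so. Xist was counted at 844 to 1095 CPM in the Bmal1+/+ libraries and at 0.142 to 0.749 CPM in the libraries labelled Bmal1-/-, while the 4 Y chromosome genes examined had 0 counts in the first and summed to 121 to 145 CPM in the second, so sex and genotype label cannot be told apart. The labelled tissue is tumour stroma, yet 10 hepatocyte markers summed to 100600 to 113000 CPM in the Bmal1+/+ libraries and to 57320 to 68990 CPM in the libraries labelled Bmal1-/-. Albumin, at 64320 to 71870 CPM against 12740 to 18830 CPM, was lower, Apoa1 (log2 fold change 1.58, adjusted p = 0.0011) and Fgb (1.14, adjusted p = 0.027) were higher, and the other 7 markers did not pass the test. In the same libraries 8 fibroblast markers summed to between 136 and 218 CPM and between 103 and 109 CPM. The 7 epithelial or tumour markers summed to 185.6 to 229.4 CPM and 208.9 to 354.6 CPM. Among these Krt8 had 122.8 to 154.6 and 138.3 to 215.5 CPM and Krt18 59.97 to 72.35 and 69.13 to 138.5 CPM, while the intestinal factor Cdx2 was at 0 in all 8 libraries. In such bulk RNA, fewer cells of a type and less RNA per cell cannot be told apart. Replicate 4 of the libraries labelled Bmal1-/- stood apart in acute-phase transcripts, with Saa1, Saa2 and Hp summing to 30650 CPM against 1862 to 3899 CPM in the other libraries of its group.

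Promoter sequence was examined for the DNA motifs that the clock and glucose-sensing factors are known to bind, and the stretches below are those of the genes whose values follow. All are RefSeq promoter sequence of mouse build GRCm38, on the strand of the gene, upstream of the start site, and they are shown for the liver pyruvate kinase gene, for the genes with a higher level that hold an E-box, for ketohexokinase, and for the gene with the largest fitted fold change. Capitals mark a carbohydrate response element in Pklr, E-boxes in the others, and in the second Ldha stretch also a cAMP response element. The Ppp1r3g stretch holds none of the motifs searched.
Pklr (chr3:89136433-89136492): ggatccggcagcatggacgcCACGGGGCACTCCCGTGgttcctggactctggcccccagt
Ppp1r3c (chr19:36736679-36736738): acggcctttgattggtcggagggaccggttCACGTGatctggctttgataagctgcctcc
Ldha (chr7:46845639-46845698): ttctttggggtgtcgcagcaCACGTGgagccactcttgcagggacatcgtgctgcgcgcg
Ldha (chr7:46845734-46845803): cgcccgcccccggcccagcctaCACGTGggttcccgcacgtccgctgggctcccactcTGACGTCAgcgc
Pfkm (chr15:98092424-98092483): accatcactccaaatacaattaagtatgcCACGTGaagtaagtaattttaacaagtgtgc
Khk (chr5:30921459-30921518): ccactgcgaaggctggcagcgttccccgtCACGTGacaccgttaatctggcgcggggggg
Ppp1r3g (chr13:35967756-35967905): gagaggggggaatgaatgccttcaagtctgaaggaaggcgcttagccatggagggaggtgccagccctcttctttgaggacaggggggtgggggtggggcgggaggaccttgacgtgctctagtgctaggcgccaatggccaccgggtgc

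Of the 43 genes, 41 had at least 1 promoter window of 300 bases, from 250 before to 50 after the start, and Gys2 and Ppp1r3b had none. An exact E-box, CACGTG, reads the same on both strands and is the site that BMAL1 and CLOCK bind. It stood in the windows of 9 of the 41 genes (22.0%), against 8.09% of 27025 genes with a window. A gene can have several windows, and by window the shares were 14.1% of 64 and 7.15% of 32851. The 9 genes were Ppp1r3c, Ldha and Pfkm, which were higher, Pcx, Pfkfb2, Pfkfb3, Mlxipl and Khk, which did not pass the test, and Fbp2, which was not tested. The 13 lower genes include Gys2, which had no window, and none of the others held an exact E-box, against 8.09% of all genes. With so few genes that difference was not tested. A carbohydrate response element, to which the glucose-sensing factor ChREBP binds, was searched as the site CANGNG and, 5 bases further, its reverse complement CNCNTG, a pattern that is the same on both strands. It occurred in Pklr, Gbe1 and Pfkfb2, or 7.32% of the 41 genes against 0.64% of all genes. By window the shares were 4.69% and 0.557%. The D-box TTATGNAA, searched on both strands, was found in Pfkm alone (3.99% of all genes), in another of its windows, and the cAMP response element TGACGTCA in Ldha alone (2.03% of all genes). No match overlapped another. Among the RefSeq start sites shown, that of Pfkm is the first base of its annotated gene and the others lie inside theirs. A match describes these letters only, and binding was not measured.

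Of the 42 genes tested with edgeR's quasi-likelihood test, in the libraries labelled Bmal1-/- 13 passed as lower and 7 as higher at a Benjamini-Hochberg adjusted p below 0.05, and 22 did not pass. Together 47.6% of the tested genes passed, against 31.1% of all 14353 genes tested. The lower genes were 31.0% of the 42, against 16.2% of all genes, and the higher genes 16.7%, against 14.9%. The median log2 fold change of the 42 genes was -0.30, and that of all genes was 0.02. In 14 genes every library labelled Bmal1-/- lay below every Bmal1+/+ library and in 7 above, against 16.8% and 16.7% of all genes (33.4% in either direction). An absolute log2 fold change above 1 together with an adjusted p below 0.05 was found in 7 genes (13.1% of all genes had both). Of these Slc2a2, Hk3, Pklr, Gys2, Ppp1r3g and Ppargc1a were lower and Ppp1r3c was higher. The same 6 and 1 met the criterion of the study, which takes p without adjustment and which 8.71% of all genes met as lower and 5.41% as higher.

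**Figure D1:**
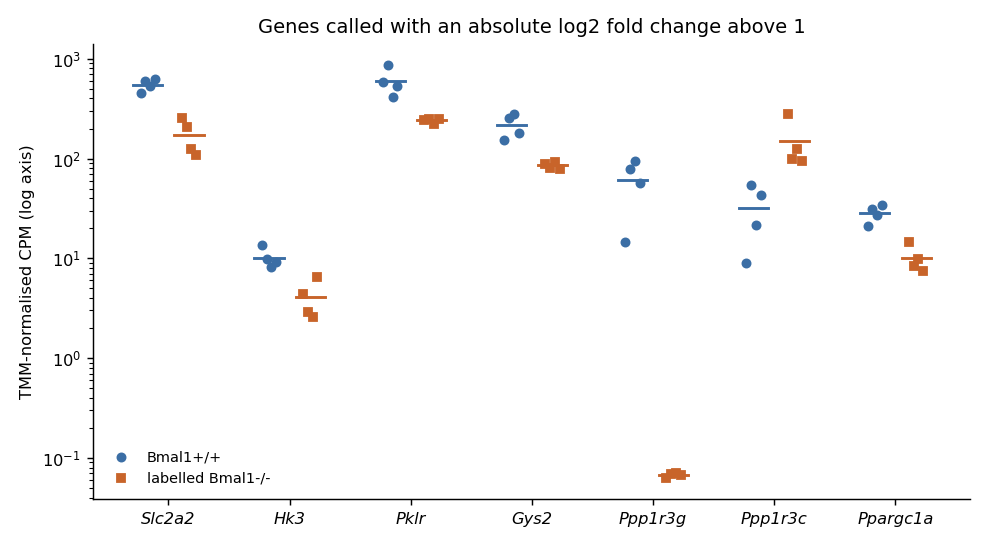
CPM after TMM normalisation, on a log axis, of the 7 genes with an adjusted p below 0.05 and an absolute log2 fold change above 1; each point is a library, circles are the 4 Bmal1+/+ libraries, squares the 4 libraries labelled Bmal1-/-, and lines the group means. The groups do not overlap in any of the 7 genes, and Ppp1r3g lies at 1 count in every library labelled Bmal1-/-.

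Genes that were lower and genes that were higher stood side by side in 4 of the roles. Of all genes 16.2% were lower and 14.9% higher, and no role was compared with these shares by a test. Within glucose uptake and phosphorylation 2 of 6 genes were lower and 2 higher. Within the upper part of glycolysis 1 of 7 was lower (14.3%) and 2 higher (28.6%), and within the lower part 4 of 8 were lower and 2 higher. The 3 phosphatase subunits gave 1 lower and 1 higher gene. Of the 6 tested genes of gluconeogenesis and glucose release 1 changed and was lower (16.7%, near the share of all genes). Of the 4 genes for fructose 2,6-bisphosphate 0 passed edgeR's test or DESeq2 with all libraries and no block, and 1, Pfkfb1, had an unadjusted p below 0.05. Among the 4 enzymes of glycogen 2 were lower and 2 did not pass.

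**Figure D2:**
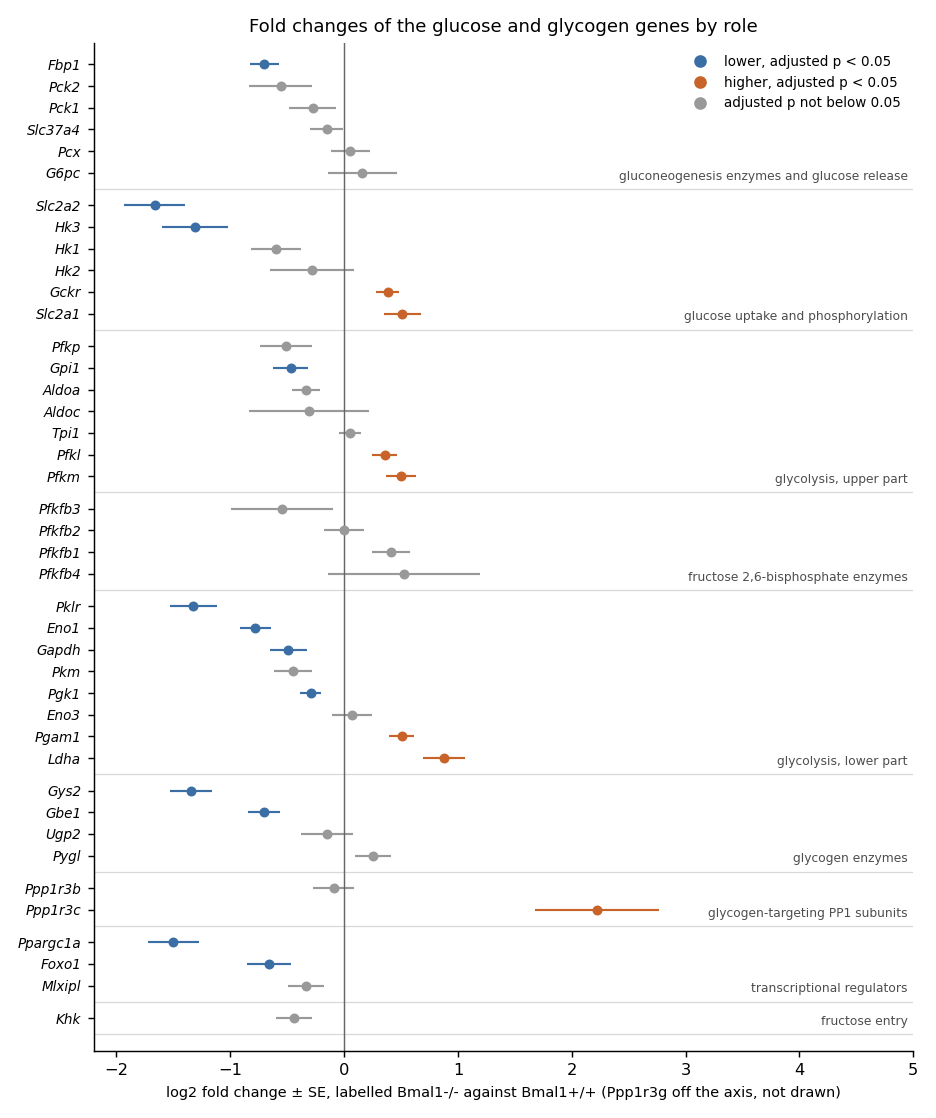
Log2 fold change with its SE (x axis) of 41 of the 42 tested genes, grouped by role (y axis), libraries labelled Bmal1-/- against Bmal1+/+ libraries; Ppp1r3g, at -9.66, is left off the axis. Colour gives the direction of the genes with an adjusted p below 0.05, and most roles hold genes on both sides of 0.

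Of the 7 genes of gluconeogenesis and glucose release, 3 had the highest levels per length of the whole set and 2, Pck2 and Fbp2, were among the lowest, and 1 of the 6 tested changed. Per length, as deposited FPKM, Pck1 (cytosolic PEP carboxykinase, which commits oxaloacetate to glucose) had the highest mean level of the 43 genes in the Bmal1+/+ libraries, at 702 ± 134 FPKM (SD, n = 4), followed by Fbp1 at 526 ± 49.4 and G6pc at 222 ± 54.2 FPKM. Pck1 stood at 3000.0, 4585, 4618 and 3749 CPM in the Bmal1+/+ libraries and at 4355, 3251, 2900.0 and 2680.0 CPM in the libraries labelled Bmal1-/-. The groups overlapped, and its log2 fold change was -0.27 (SE, the standard error of the fit, 0.21, adjusted p = 0.34). G6pc, the catalytic subunit of glucose-6-phosphatase, which frees glucose for release, ranged from 369 to 711 CPM and from 385 to 870 CPM (0.16 on the log2 scale, adjusted p = 0.72). Its partner Slc37a4, which carries glucose 6-phosphate into the endoplasmic reticulum, and Pcx, pyruvate carboxylase, had log2 fold changes of -0.15 (adjusted p = 0.46) and 0.06 (adjusted p = 0.83). The mitochondrial Pck2 was counted at 1.25 to 3.71 CPM in the 8 libraries, with a log2 fold change of -0.56 (adjusted p = 0.15).

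Fbp1, fructose-1,6-bisphosphatase, which opposes phosphofructokinase, was the exception among the gluconeogenic genes. It had 1344, 1511, 1202 and 1244 CPM in the Bmal1+/+ libraries and 749.8, 837.7, 846.8 and 829.1 CPM in the libraries labelled Bmal1-/-. Every library labelled Bmal1-/- lay below every Bmal1+/+ library, and the level was 1.62-fold lower (log2 fold change -0.70, SE 0.13, adjusted p = 0.0028). Its muscle counterpart Fbp2, not tested for want of reads, had 2, 2, 2 and 13 counts in the Bmal1+/+ libraries and 0 in each library labelled Bmal1-/-, where a share of up to 3 counts is allowed. The 9 skeletal muscle markers summed to 0.301 to 1.15 CPM in the first group and 0.204 to 0.783 CPM in the second. Acta1, Myh1, Myh4, Tnnt3 and Pvalb were at 0 in all 8 libraries, Mylpf was counted in each, and Ckm, Tnni2 and Atp2a1 had at most 3 counts in any library. Their part in the counts of Fbp2 was not tested.

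At glucose entry, the low-affinity transporter of the liver was lower and the widespread transporter was higher. Slc2a2 (GLUT2, chromosome 3 from 28697903 to 28731359) was counted at 455.1, 592.9, 534.9 and 620.5 CPM in the Bmal1+/+ libraries and at 257.9, 205.8, 124.9 and 107.4 CPM in the libraries labelled Bmal1-/-. The groups did not overlap, although the second spread widely, and the level was 3.17-fold lower (log2 fold change -1.66, SE 0.27, adjusted p = 0.0016). Slc2a1 (GLUT1) had 14.4, 14.8, 10.1 and 10.7 CPM against 21.5, 16.8, 16.2 and 16.8 CPM. It was 1.42-fold higher without overlap (log2 fold change 0.51, SE 0.16, adjusted p = 0.038), and the call was lost when replicate 1 of the second group was left out (adjusted p = 0.097) and in 5 other settings. As a share of the FPKM of both transporters, Slc2a1 made up 2.20% to 3.96% in the Bmal1+/+ libraries and 9.56% to 16.8% in the others.

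Gckr, the protein that holds the liver's glucokinase inactive in the nucleus, was higher by a small margin in every library. It stood at 272.0, 239.1, 234.2 and 252.0 CPM in the Bmal1+/+ libraries and at 348.9, 322.6, 318.6 and 309.5 CPM in the libraries labelled Bmal1-/- (1.30-fold, log2 fold change 0.38, SE 0.10, adjusted p = 0.02). Leaving out any 1 of 3 libraries ended the call, with adjusted p between 0.053 and 0.059.

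The hexokinases with high affinity for glucose were scarce, and 1 of the 3 was lower. Hk3, a hexokinase found mainly in myeloid cells (chromosome 13 from 55005985 to 55021385), had 13.5, 9.80, 8.13 and 9.13 CPM in the Bmal1+/+ libraries and 4.43, 2.91, 2.56 and 6.44 CPM in the libraries labelled Bmal1-/-. The groups did not overlap, and the level was 2.48-fold lower (log2 fold change -1.31, SE 0.29, adjusted p = 0.0078). Of 9 myeloid markers, which summed to 249 to 306 CPM in the Bmal1+/+ libraries and 98.0 to 223 CPM in the others, 8 were tested and 5, Ptprc, Cd68, Adgre1, Csf1r and Lyz2, were lower (log2 fold changes of -1.37, -1.17, -1.31, -0.97 and -1.20). Itgam (-1.63), S100a8 (1.36) and S100a9 (1.26) did not pass, and Mpo was not tested. S100a8 and S100a9 both stood at 15.2 CPM in replicate 4 of the second group and at 0.346 to 3.56 CPM in the other libraries. The part of these cells in the fall of Hk3 was not tested. Hk1 (3.62 to 4.70 CPM against 1.85 to 3.53 CPM) did not overlap between the groups but missed the threshold (log2 fold change -0.60, adjusted p = 0.062). With all libraries Hk1 passed it in DESeq2 and with a filter of at least 10 counts in every library. It also passed when replicate 4 of the second group was left out (adjusted p = 0.036). Hk2 lay between 0.712 and 2.37 CPM in the 8 libraries (log2 fold change -0.28, adjusted p = 0.60).

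In the upper part of glycolysis 2 of the 3 phosphofructokinase genes rose and the isomerase ahead of them fell. Pfkl, the liver form of the rate-limiting enzyme, had 33.97 to 42.7 CPM in the Bmal1+/+ libraries and 43.77 to 52.71 CPM in the libraries labelled Bmal1-/- (log2 fold change 0.36, SE 0.11, adjusted p = 0.033). Pfkm, the muscle form, had 9.99, 12.29, 13.97 and 10.58 CPM against 17.3, 16.14, 17.08 and 15.67 CPM (1.41-fold higher, log2 fold change 0.50, SE 0.13, adjusted p = 0.016). Neither overlapped between the groups, but the call of Pfkl was lost in 8 of 19 other settings, whereas that of Pfkm was kept in all 19. Pfkp, the platelet form, was counted at 1.49 to 3.70 CPM over the 8 libraries and did not pass (log2 fold change -0.51, adjusted p = 0.12). Per length Pfkl contributed 58.6% to 69.1% of the FPKM of the 3 genes in the Bmal1+/+ libraries and 60.6% to 65.4% in the others, so the shares overlapped.

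Gpi1, which interconverts glucose 6-phosphate and fructose 6-phosphate, ranged from 134 to 200 CPM in the Bmal1+/+ libraries and from 98.0 to 136 CPM in the libraries labelled Bmal1-/-. It passed the test with overlapping groups (log2 fold change -0.47, SE 0.15, adjusted p = 0.042) and lost the call in 6 of 19 other settings. Aldoa (log2 fold change -0.34, adjusted p = 0.063) and Aldoc (-0.31, adjusted p = 0.69), which split fructose 1,6-bisphosphate, and Tpi1 (0.05, adjusted p = 0.73), which interconverts the triose phosphates, did not pass. Aldoa passed with DESeq2 on all libraries and when replicate 4 of the Bmal1+/+ group was left out. Aldoc passed without replicate 4 of the libraries labelled Bmal1-/-, which held 13.3 CPM against 1.92 to 4.68 CPM in the rest of its group (log2 fold change without it -1.14, adjusted p = 0.04).

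The 4 bifunctional enzymes that set fructose 2,6-bisphosphate, the strongest activator of liver phosphofructokinase, gave values on both sides of 0. Pfkfb1, the liver form, carried 67.8% to 81.6% of their FPKM in the Bmal1+/+ libraries and 76.8% to 87.6% in the others, and had a log2 fold change of 0.41 (SE 0.17, adjusted p = 0.093). It passed when replicate 2 of the Bmal1+/+ group was left out (adjusted p = 0.013) and under the replicate block (adjusted p = 0.038). Pfkfb2 had a mean of 30.0 CPM in both groups (log2 fold change 0.00, SE 0.18). Pfkfb3 spread from 10.5 to 29.2 CPM and from 4.70 to 22.5 CPM (log2 fold change -0.54, adjusted p = 0.39). Pfkfb4 had 1.14 to 1.41 CPM in the Bmal1+/+ libraries and 1.31, 0.416, 0.569 and 5.16 CPM in the others. The last of these, replicate 4, stood far above the rest, and the log2 fold change went from 0.53 to -0.73 without that library, neither past the threshold (adjusted p = 0.58 and 0.19).

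**Figure D3:**
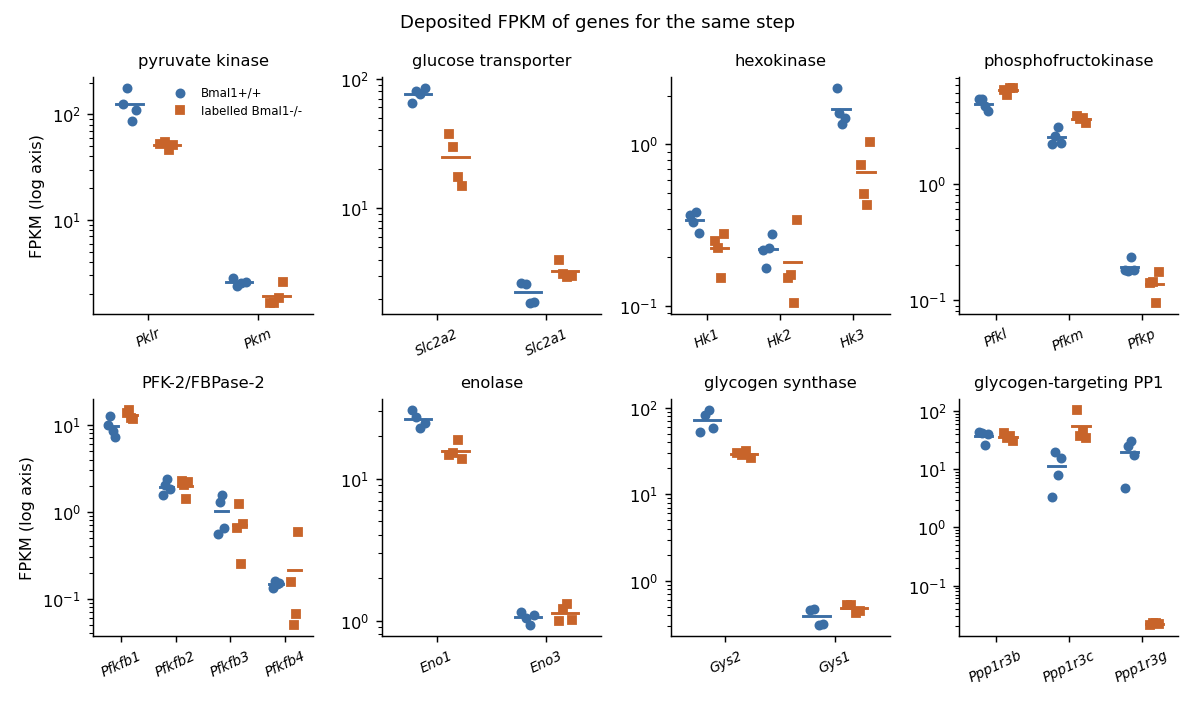
Deposited FPKM (log axis) of genes that encode the same step, each point a library, circles Bmal1+/+ and squares labelled Bmal1-/-, lines the group means. Pklr, Slc2a2 and Gys2 are lower in every library labelled Bmal1-/- than in any Bmal1+/+ library and stay above Pkm, Slc2a1 and Gys1.

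Liver pyruvate kinase was the most changed enzyme of lower glycolysis. Pklr (chromosome 3 from 89136142 to 89146784), which makes pyruvate in the last step and is a classic target of ChREBP, had 590.0, 873.2, 410.9 and 539.0 CPM in the Bmal1+/+ libraries and 244.9, 251.3, 220.5 and 246.8 CPM in the libraries labelled Bmal1-/-. The second group was tight and lay wholly below the first, 2.50-fold lower (log2 fold change -1.32, SE 0.21, adjusted p = 0.0014). Its promoter holds the carbohydrate response element shown above. Pkm, the pyruvate kinase of most other tissues, had 18.1 to 20.8 CPM in the Bmal1+/+ libraries and 11.7, 11.7, 13.5 and 19.6 CPM in the others. It did not pass edgeR's test with all libraries (log2 fold change -0.45, adjusted p = 0.071). It did pass with limma-voom on all libraries, and in edgeR's test without replicate 4, the highest (adjusted p = 0.0033). Of the FPKM of both kinases Pklr held 97.2% to 98.7% and 95.1% to 97.1%.

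Ldha, lactate dehydrogenase A, which converts pyruvate and lactate, rose at the step that follows. It was counted at 384.2, 296.1, 415.0 and 403.2 CPM in the Bmal1+/+ libraries and at 537.4, 580.4, 772.9 and 866.4 CPM in the libraries labelled Bmal1-/-. The groups did not overlap and the level was 1.84-fold higher (log2 fold change 0.88, SE 0.18, adjusted p = 0.006), in a gene whose promoter stretches above hold E-boxes and a cAMP response element. Of the 4 other genes of the lower part that changed, 3 went down. Eno1, the main enolase, had 238.8, 219.3, 178.0 and 199.2 CPM against 113.3, 115.9, 147.4 and 109.8 CPM (1.72-fold lower, log2 fold change -0.78, SE 0.14, adjusted p = 0.0023). Gapdh and Pgk1, which oxidise glyceraldehyde 3-phosphate and then make ATP, had log2 fold changes of -0.49 (adjusted p = 0.048) and -0.30 (adjusted p = 0.041), and these calls were lost in 14 and 11 of 19 other settings. Pgam1, phosphoglycerate mutase, was higher, at 63.7 to 78.5 CPM against 93.1 to 117 CPM (log2 fold change 0.51, SE 0.11, adjusted p = 0.0067). Eno3, the muscle enolase, did not pass (0.07, adjusted p = 0.79).

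Several of these genes share their reads with processed pseudogenes, so the count of the gene itself is uncertain. Copies with at least 95% identity over at least 300 bases were found for 8 of the 43 genes. Gapdh had 103, of which 98 were counted, and these together held 641 to 838 CPM in the Bmal1+/+ libraries and 570 to 670 CPM in the libraries labelled Bmal1-/-, against 8.13 to 11.1 CPM and 5.29 to 7.31 CPM on Gapdh itself. Its level is thus not measured by its own row, and with the copies added it did not pass (log2 fold change -0.26, adjusted p = 0.16). For Pgk1 the copies, mainly Pgk1-rs7, held 176 to 195 CPM and 139 to 151 CPM, and for Eno1, mainly Gm4735 and Eno1b, 307 to 404 CPM and 188 to 225 CPM. With their copies added, Eno1 (log2 fold change -0.79, adjusted p = 0.0016), Pgk1 (-0.31, adjusted p = 0.04) and Pgam1 (0.40, adjusted p = 0.011) kept direction and call. The copies of Ldha held 5.90 to 8.80 CPM and 11.99 to 20.35 CPM, little beside the gene.

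**Figure D4:**
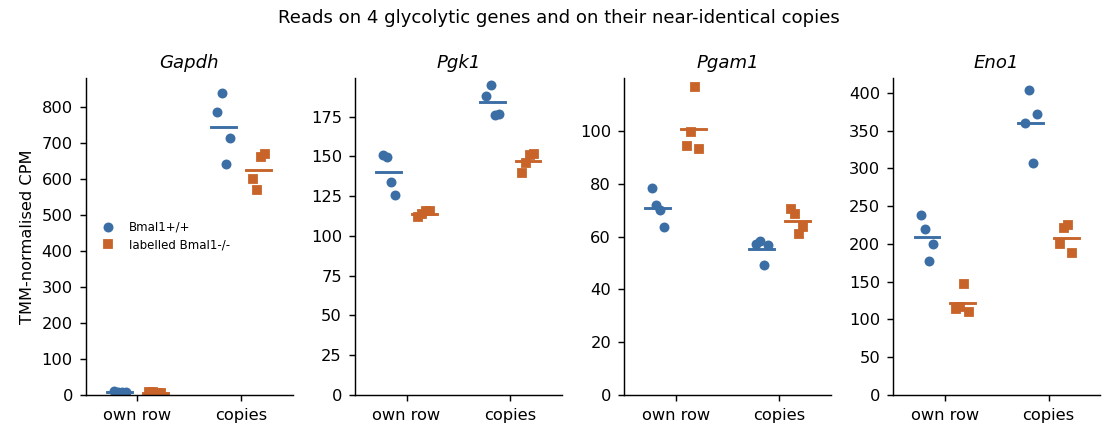
CPM after TMM normalisation (linear axes from 0) counted on the row of Gapdh, Pgk1, Pgam1 and Eno1 and on the sum of their near-identical copies; each point is a library, circles Bmal1+/+, squares labelled Bmal1-/-, lines the group means. For Gapdh nearly all reads lie on copies, and for Pgk1 and Eno1 the copies hold more than the gene.

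The largest fold change of the 43 genes in each direction was in a glycogen gene, and the liver synthase was lower. Gys2, the liver glycogen synthase that elongates the chain (chromosome 6 from 142422613 to 142473109), had 154.0, 254.0, 278.9 and 180.2 CPM in the Bmal1+/+ libraries and 87.9, 81.3, 92.8 and 79.2 CPM in the libraries labelled Bmal1-/-. The groups did not overlap, and the level was 2.54-fold lower (log2 fold change -1.35, SE 0.19, adjusted p = 0.00066). Gbe1, the branching enzyme, was 1.63-fold lower, at 192.3, 192.5, 138.4 and 187.0 CPM against 107.3, 101.6, 127.2 and 99.9 CPM (log2 fold change -0.70, SE 0.14, adjusted p = 0.0041). Pygl, the liver phosphorylase that breaks glycogen down, did not pass, with 405 to 634 CPM against 541 to 708 CPM (log2 fold change 0.25, SE 0.16, adjusted p = 0.26). Ugp2, which makes the UDP-glucose that the synthase uses, did not pass either (log2 fold change -0.15, SE 0.23, adjusted p = 0.65). Of the FPKM of Gys2, Pygl, Gbe1 and Ugp2 together, Gys2 made up 21.1% to 38.1% in the Bmal1+/+ libraries and 12.4% to 16.4% in the others, and Pygl 20.6% to 27.4% and 29.6% to 41.7%.

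The subunits that bring protein phosphatase 1 to glycogen, where it activates the synthase and inactivates the phosphorylase, did not move as a group. Ppp1r3g (chromosome 13 from 35958839 to 35970388) was counted at 14.5, 79.2, 93.9 and 56.5 CPM in the Bmal1+/+ libraries, or 241, 1237, 1398 and 1014 counts, and at 1 count in each library labelled Bmal1-/-, under the floor of 3. The ratio of the summed counts, scaled to the library totals after TMM normalisation, was 885, with a 95% exact interval of 345 to 3250 that covers counting error only (adjusted p = 3.2e-05 in edgeR's test). Its fitted value of -9.66 on the log2 scale varied with the prior count and the scale, from -4.07 to -9.98 over the settings tried. Ppp1r3c (PTG, chromosome 19 from 36731731 to 36736653) rose instead, from 8.91, 54.9, 21.5 and 43.1 CPM to 280.1, 99.3, 124.4 and 94.4 CPM. Its groups did not overlap but each varied several-fold, and the 4.66-fold rise had a wide error (log2 fold change 2.22, SE 0.54, adjusted p = 0.012). Without replicate 1 of the libraries labelled Bmal1-/-, the highest, the log2 fold change was 1.73, and it remained past the threshold without any 1 library (highest adjusted p 0.037). Ppp1r3b, the main subunit of liver, did not pass, with 380 to 646 CPM against 470 to 600 CPM (log2 fold change -0.09, SE 0.18, adjusted p = 0.73).

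Per length, the makeup of the 3 subunits was thus different between the groups. In the Bmal1+/+ libraries Ppp1r3b had 38.0 ± 8.07, Ppp1r3g 19.5 ± 11.2 and Ppp1r3c 11.5 ± 7.30 FPKM (SD, n = 4), where Ppp1r3g and Ppp1r3c lie within each other's spread. In the libraries labelled Bmal1-/- Ppp1r3c had 55.6 ± 33.5, Ppp1r3b 36.4 ± 4.40 and Ppp1r3g 0.0221 ± 0.00115 FPKM. Ppp1r3c made up 6.44% to 22.5% of the 3 in the first group and 51.6% to 71.6% in the second.

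Among the regulators, the coactivator of gluconeogenic genes was lower although most of the gluconeogenic enzymes did not pass the test. Ppargc1a (PGC-1α, chromosome 5 from 51454250 to 51567726) had 21.2, 31.1, 27.5 and 34.4 CPM in the Bmal1+/+ libraries and 14.6, 8.38, 9.75 and 7.53 CPM in the libraries labelled Bmal1-/-. The groups did not overlap, and the level was 2.83-fold lower (log2 fold change -1.50, SE 0.22, adjusted p = 0.001). Foxo1, a factor that insulin keeps out of the nucleus, ranged from 101.5 to 136.3 CPM and from 53.5 to 105 CPM. It passed with overlapping groups (log2 fold change -0.66, SE 0.20, adjusted p = 0.028), and leaving out any 1 of 5 libraries ended the call, with adjusted p between 0.051 and 0.068. Mlxipl, which encodes ChREBP, had 408 to 642 CPM against 383 to 413 CPM and did not pass (log2 fold change -0.34, SE 0.16, adjusted p = 0.13). Khk, ketohexokinase, which admits fructose to these pathways, had 346 to 499 CPM against 269 to 374 CPM (log2 fold change -0.44, SE 0.16, adjusted p = 0.061). It passed with DESeq2 on all libraries and when replicate 3 of the second group was left out (adjusted p = 0.021).

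Further genes of glucose use were taken from 8 lists. Of 103 such genes 92 were tested, and 30 were lower and 16 higher at an adjusted p below 0.05, or 46 of the 92 (31.1% of all genes passed). The 6 genes listed as ChREBP targets were all lower, against 16.2% of all genes, with a median log2 fold change of -2.52. They were chosen with earlier results of these data known and are not a full set of its targets. Whether ChREBP had a part in their fall was not tested. Among them were the lipogenic Fasn (-2.93, adjusted p = 0.00022), Thrsp (-2.81, adjusted p = 0.00085) and Acly (-2.23, adjusted p = 0.0014). Pnpla3, a lipase of lipid droplets, had 200 to 694 counts in the Bmal1+/+ libraries and 1 to 6 in the others. The ratio of its summed counts was 142, with a 95% exact interval of 81.3 to 276 that covers counting error only. Its fitted log2 fold change was -7.08 (SE 0.49). These genes were lower while the transcript of Mlxipl itself did not pass.

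Of the 12 tested genes around pyruvate dehydrogenase, the mitochondrial gate between glycolysis and the citric acid cycle, 7 (58.3%) were lower, against 16.2% of all genes, and 5 did not pass. The lower genes included the inhibitory kinase Pdk1 (log2 fold change -1.41, SE 0.13), the activating phosphatase Pdp2 (-1.21, SE 0.16), and both subunits of the mitochondrial pyruvate carrier, Mpc1 (-1.34, SE 0.26) and Mpc2 (-0.64, SE 0.19). The 8 genes of the pentose phosphate pathway divided into 3 lower (37.5%, against 16.2% of all genes), 2 higher (against 14.9%) and 3 that did not pass, with ribose phosphate isomerase Rpia (-1.23, SE 0.21), phosphogluconate dehydrogenase Pgd (-0.72, SE 0.18) and transketolase Tkt (-0.57, SE 0.15) lower and H6pd, its enzyme in the endoplasmic reticulum, higher (1.06, SE 0.20).

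All 7 genes for fructose and galactose passed the test, 4 lower and 3 higher, against 31.1% of all genes. The fructose transporter Slc2a5 fell from 6.40 to 9.67 CPM in the Bmal1+/+ libraries to between 0.312 and 1.45 CPM (log2 fold change -3.15, SE 0.35). In the galactose pathway Galk1 was lower (-0.68) and Galt, which acts after it, was higher (0.66). Among the 12 other glycolysis genes tested, 3 were lower and 2 higher, or 41.7% in all, against 31.1% of all genes. The lactate carrier Slc16a1 rose (1.25, SE 0.16), as did Bpgm, bisphosphoglycerate mutase (0.67, SE 0.15). Slc2a4, the insulin-responsive transporter, was counted at 44 to 148 reads in the Bmal1+/+ libraries and 2 to 15 in the others. The ratio of its summed counts was 15.5, with a 95% exact interval of 10.2 to 24.8 that covers counting error only. Its fitted log2 fold change was -3.95 (SE 0.59). The 5 adipocyte markers summed to 1.61 to 4.42 CPM in the first and 0.814 to 2.29 CPM in the second, and their part in the fall of Slc2a4 was not tested.

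Among 19 other glycogen genes 3 were lower and 3 higher, or 31.6% in all, near the 31.1% of all genes, with the brain phosphorylase Pygb (-0.82) and the phosphatase laforin Epm2a (-0.76) among the lower genes and Nhlrc1, the ligase malin, among the higher (0.98). Of 21 genes of glucagon, insulin and fasting 33.3% passed, also near that share, and 2 were lower, Foxo3 (-1.52, SE 0.19) and Cebpb (-0.66, SE 0.17), and 5 were higher, including the insulin receptor substrate Irs2 (1.12, SE 0.27) and Gpd1 (0.93, SE 0.16). Hypoxia genes did not move together, since of 8 tested Ndrg1 was higher (1.74, SE 0.22) and P4ha1 (-0.84), Bnip3 (-0.72) and Vegfa (-0.66) were lower. All genes named from these lists had an adjusted p below 0.05 and groups that did not overlap.

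**Figure D5:**
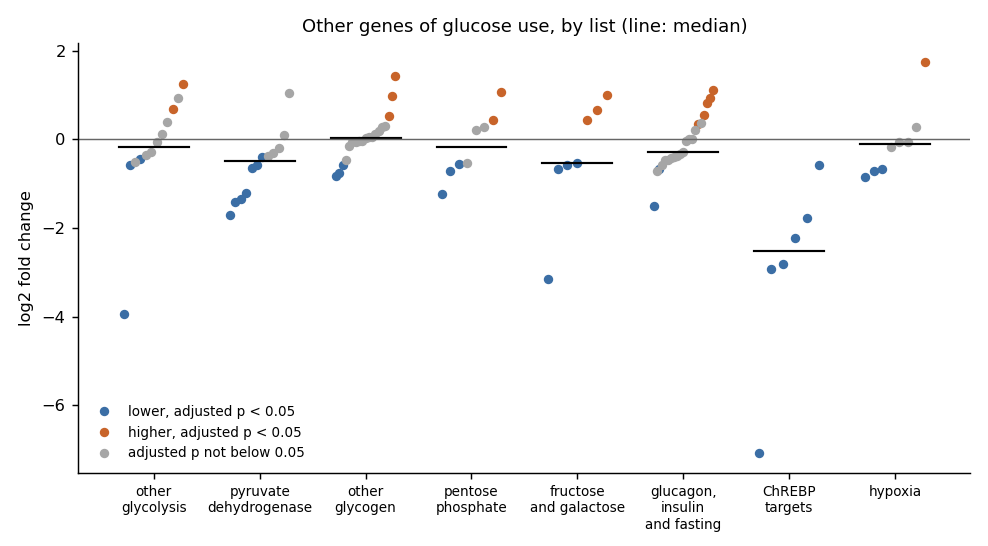
Log2 fold change (y axis) of the 92 tested genes of 8 further lists (x axis), each point a gene, coloured by direction where its adjusted p was below 0.05, with the median as a line; a gene on 2 lists is drawn in both. The listed ChREBP targets lie below 0 throughout, and the other lists except the pyruvate dehydrogenase genes hold higher and lower calls.

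Of the 43 genes, 26 overlap another annotated gene, 24 of them one on the opposite strand. Among the 7 largest changes this holds for Slc2a2, Hk3, Pklr, Ppp1r3g and Ppargc1a and not for Gys2 or Ppp1r3c. The strand setting of the counting is not given in the sources used here, so reads of overlapping genes may not be separated.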

How the data were processed

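RNA from 8 samples was sequenced, 4 labelled Bmal1+/+ and 4 labelled Bmal1-/-. The study's methods describe mapping to GRCm38 with HISAT2 and counting with StringTie, whereas the submitters' processing notes name CASAVA 1.8 and TopHat2 2.0.6. The authors deposited counts per gene, whole numbers without normalization, and FPKM values beside them. For 9653 genes with at least 50 counts in every library, the deposited FPKM was proportional, within 1%, to the count per library total through 1 constant length a gene. Counts were used for tests and FPKM to compare levels between genes.

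Counts were filtered with filterByExpr, scaled by TMM and compared with edgeR's quasi-likelihood test (edgeR 4.0.16, limma 3.58.1 and DESeq2 1.42.0 in R 4.3.3; prior count 0.125) over 14353 genes, with Benjamini-Hochberg adjustment over all of them and a threshold of 0.05. CPM are TMM-normalised, folds are fitted, and each standard error (SE) is the log2 fold change over the root of its F statistic. The procedure was tested on simulated data. Replicate pairs differed by more than sampling noise.

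The 43 genes and the other lists were chosen with earlier results of these data known. All 43 are accounted for. Every library is given for genes with adjusted p below 0.05, no overlap and an absolute log2 fold change above 1, and for others a result turns on. Up to 4 genes a list, those with the largest change, no overlap and a mean of at least 1 CPM, are named from the other lists, leaving out results that are not reported here. Symbols and coordinates are from GENCODE on GRCm38, and promoters from RefSeq on GRCm38.p6. Copies were found with BLAST 2.17.0. Figures were drawn with matplotlib 3.10.9 in Python 3.11.15. Alternatives were DESeq2, other scalings, filters, a prior count of 2, limma-voom, limma on log2 of FPKM plus 0.1 or 1, a replicate block, each library left out, the criterion of the study (unadjusted p below 0.05 with an absolute log2 fold change above 1) and, added after the data were seen, the copies summed into their gene.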

Additional observations from a re-analysis of the deposited data

Results flagged for a closer look

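In 8 of the 84 sets of 4 libraries (each gene in each group), the highest or lowest library lay far from the others by Dixon's test at the 95% level, where chance gives about 1 in 20. High single values were Slc2a1 in replicate 1 of the libraries labelled Bmal1-/- (21.5 CPM, others 16.2 to 16.8), Ppp1r3c in the same library (280.1 CPM, others 94.4 to 124), Eno1 in replicate 3 of that group (147 CPM, others 110 to 116) and Khk in the same library (374 CPM, others 269 to 285). In the Bmal1+/+ group, Gapdh was high in replicate 1 (11.1 CPM, others 8.13 to 8.33) and Pfkp in replicate 3 (3.70 CPM, others 2.89 to 2.95). Gbe1 (138 CPM, others 187 to 193) and Ppp1r3b (380.4 CPM, others 609 to 646) were low in replicate 3 of the Bmal1+/+ group.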

How the results depend on the processing

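Of the 20 genes that passed the test, 13 kept direction and call in every setting that gave a value, and none changed direction. Of the 22 that did not pass, 6 passed in some setting and 6 changed sign. The counts of 13 lower and 7 higher genes went from 9 to 14 and from 4 to 7 when 1 library was left out. The higher count was 4 without Bmal1+/+ replicate 3 and 4 without replicate 1 of the libraries labelled Bmal1-/-. The study's criterion left 6 lower and 1 higher, and 13 lower and 6 higher of the other genes. Replicate numbers did not pair the samples (correlation of deviations from the group means between -0.0642 and 0.063 for the same number), and with the replicate number as a block 11 genes were lower and 7 higher. Sign changed for Pfkfb2 with DESeq2 (-0.01146), upper-quartile factors (-0.01024), at least 10 counts (-0.01882), limma-voom (-0.003961) and the block (-0.004849), and for Pfkfb4 with limma-voom (-0.15). With 1 library left out, log2 fold changes ran from -0.10 to 0.12 for Pfkfb2, -0.73 to 0.86 for Pfkfb4, -0.089 to 0.13 for Pcx, -0.0599 to 0.33 for G6pc, -0.024 to 0.14 for Eno3 and -0.36 to 0.032 for Ugp2. The cause was not tested. With 4 libraries a group, genes near the threshold cannot be placed firmly on either side of it.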
